A study of Mus musculus with 48 samples.

Results

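Adenosine-to-inosine editing was measured in whole heart from 3 Adar1+/+ Ifih1-/- mice (WT) and 3 Adar1E861A/E861A Ifih1-/- mice (E861A), 6 of the 48 libraries of the study. All were males of 12 weeks on the C57BL/6 background and described as independent biological replicates. Both genotypes lack MDA5, the product of Ifih1, so both differ from an unmodified mouse, and the E861A animals make ADAR1 protein that cannot deaminate. The animals carry the mutation in every cell, and whole heart mixes muscle, vessel, fibroblast and blood cells, so a level averages over cell types. In each library, multiplexed PCR amplified selected loci, and the reads over each position were counted in total and with a G in place of the reference A. The editing level is edited reads divided by all reads, given in percent. Of 48715 positions in the tables, 6154 had more than 100 reads in 2 or 3 hearts of each genotype, and 446 of these were kept because the pooled level of a genotype exceeded 1%. Of the kept sites 28 were labelled intergenic and the rest lay in named genes, and 375 had over 100 reads in all 6 libraries, called complete here. Near the 1% limit, the lowest kept site stood at 1.01% and the highest site left out, in Slfn5, at 0.996%.

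ADAR enzymes bind double-stranded RNA, which in mouse transcripts often forms between inverted repeats in 3′ UTRs and introns, and convert adenosine to inosine, which is read as guanosine. ADAR1 is made in most tissues and is known for editing such repeats, which keeps endogenous RNA from being sensed by MDA5. ADAR2, encoded by Adarb1, is known for recoding single codons, in the nervous system above all, and was not altered in either genotype. Comparing the genotypes therefore asks which heart sites need the deaminase activity of ADAR1.

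Of the 17 heart muscle genes looked up, the panel covers 2, Ryr2 and Atp2a2, and neither had a read in any heart library, so the tissue label could not be checked against muscle markers. No position was listed for any of the 5 blood cell markers, and those of the vessel marker Pecam1 and the fibroblast marker Dcn had no read in heart. Of 4 neuronal marker genes, Htr2c, Gria2 and Gabra3 were read in heart, with up to 2813, 1119 and 304 reads at a position, and Syt1 was not. Reads per locus follow the PCR and are not RNA levels, and whether neuronal RNA has a part in the results was not tested. Summed coverage ran from 4878116 in E861A 2 to 11394093 in E861A 3, and 5263 to 6646 positions per library exceeded 100 reads. Reads were counted without molecular identifiers, so intervals and floors here cover counting error only, and sites of one transcript share reads.

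The WT hearts differed widely from each other, so the libraries are described before any contrast. Over the 375 complete sites, 257 exceeded 1% in WT 1, 109 in WT 3 and 58 in WT 2, against 51 to 69 in the E861A libraries. WT 2 therefore stood near the E861A libraries in the number of edited sites. At 33 of its 58 sites all 3 E861A hearts were at or under 1%, and at the Car5b, Fam46c and Nrp1 sites shown next its levels were far above theirs. Where leaving out 1 library moved a result, the value without it is given beside it or in the closing section.

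The sequences below, read from the NCBIM37 (mm9) assembly on the transcribed strand, show sites described one by one below. Each run holds 21 bases from 5′ to 3′, and the capital marks the edited adenosine. The first 8 lie in transcripts whose editing was lower in E861A, and the last 6 lie in coding sequence or were above 5% in each E861A heart. Copa, among these, was edited in 2 of the 3 E861A hearts. The sites are Car5b (chrX:160415964), Fam46c (chr3:100272400 and chr3:100274399), Nrp1 (chr8:131028073), Atl3 (chr19:7612605), Rhoa (chr9:108239461), Trim12c (chr7:111487820), Ecm2 (chr13:49627526), Cog3 (chr14:76119526), Flna (chrX:71472201), Copa (chr1:174022479), uc012aji.1 (chr17:6123047), Iqgap1 (chr7:87857174) and Acot10 (chr15:20595218). Car5b, Fam46c, Trim12c, Cog3, Flna, Iqgap1 and Acot10 are on the minus strand.
Car5b: ttaaaagagaAggtctcatct
Fam46c: gtgtgtttatAtaggaaggtg
Fam46c, second site: tttcttagttAggtttgaatt
Nrp1: aactggttaaAgtgacagtat
Atl3: tctcagtgtaAccttgtctgt
Rhoa: tttgtgaattAggctgtaact
Trim12c: gtgtattcttAgtgatcactt
Ecm2: gggtctatatAgtgagatcca
Cog3: cattaaggaaAtttccctgga
Flna: tctagtcttcAggtgaggcac
Copa: cgtttgggatAtttctggtga
uc012aji.1: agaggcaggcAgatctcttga
Iqgap1: aagaaaaaggAaaaaaaaaag
Acot10: cattcatgtcAgaaaaagaag

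The same 21 bases were searched in the whole assembly, once with A and once with G at the edited position, because reads from a copy that carries G would count as edited. Car5b, both Fam46c sites, Nrp1, Trim12c, Cog3 and Copa each matched 1 place and had no copy with G. The Acot10 and Atl3 sites each had 1 copy with G elsewhere, and the uc012aji.1 site, inside an exon of Tulp4, had 230 places with A and 56 with G. Iqgap1 sits in a run of A, found at 23 places with A and 1 with G. Over all kept sites, 35.7% of 446 had such a G copy, and 51.1% matched a single place and no G copy.

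Editing was lower in E861A hearts mainly in 3′ UTRs, and the class means of coding sites overlapped between genotypes. Of the 446 sites, 304 were kept through WT alone, 90 through E861A alone and 52 through both, so that the choice of sites itself favours a lower E861A level, in 3′ UTRs above all (238 through WT alone, 45 through E861A alone). The class means, shares and directions given here are descriptions of sites chosen in this way. Over the 258 complete 3′ UTR sites, the mean level was 10.4%, 1.50% and 5.70% in WT 1, 2 and 3 and 1.03%, 1.12% and 0.634% in E861A 1, 2 and 3. The highest E861A heart lay under the lowest WT heart. The mean was 5.87% ± 4.45 (SD, n = 3) in WT and 0.930% ± 0.260 (n = 3) in E861A, a difference of -4.94 points or 84.2% of the WT value, which was -2.67 points without WT 1 and -7.12 without WT 2. The two-sided exact permutation test over libraries gave p = 0.1, the smallest value that 3 against 3 allows, and 0.35 after adjustment over the 7 site classes. At the 1071 sites chosen instead by editing in WT of another tissue and read in all 6 hearts, the mean was 2.00% ± 1.27 in WT and 0.676% ± 0.062 in E861A (n = 3 each), a difference of -1.32 points (exact permutation p = 0.1). Of these 1071 sites, 38 were lower and 87 higher in E861A without overlap. Over all 4630 covered positions with 6 values, 84 (1.81%) were lower and 451 (9.74%) higher. Among the 1071, the 778 sites not kept in heart stood at 0.175% in WT and 0.217% in E861A.

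The 24 complete intergenic sites behaved alike, at 9.41%, 3.89% and 5.73% in WT and 3.36%, 0.796% and 1.49% in E861A (exact permutation p = 0.1, adjusted 0.35). The label intergenic is that of the deposited tables. In the GENCODE vM1 annotation of the same assembly, 26 of the 28 kept intergenic sites lie in an exon on the edited strand, in 15 genes, and 1 lies outside any gene. These include 4 sites in the untranslated part of Fam46c, a cytoplasmic poly(A) polymerase known from blood cells.

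Coding sites showed no loss that could be separated from the spread. The 14 complete nonsynonymous sites averaged 9.00%, 15.1% and 9.14% in WT and 9.95%, 10.1% and 11.7% in E861A. Single sites in Cog3, Flna and Copa carry most of these means, at 49.2%, 64.3% and 29.8% in WT and 54.1%, 62.0% and 15.5% in E861A. WT 2, the lowest WT heart in 3′ UTRs, was the highest of all 6 here, with Flna at 91.4%, Copa at 48.9% and Kcna1 at 10.8%. The difference of -0.48 percentage points gave an exact permutation p of 1.0 and turned to 1.52 without WT 2. At the 5 complete synonymous sites the mean was 2.21% ± 1.27 in WT and 3.22% ± 1.80 in E861A (n = 3 each, exact permutation p = 0.5), a difference that became -0.02 points without E861A 3.

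The remaining classes depended on WT 1. The 55 complete intronic sites averaged 6.43%, 0.392% and 3.08% in WT and 2.47%, 2.28% and 0.661% in E861A, and without WT 1 the difference turned from -1.50 to 0.07 points. The 16 sites in non-coding RNAs averaged 10.8%, 2.82% and 7.30% against 2.64%, 6.15% and 7.77%, and their difference went from -1.45 to 0.45 points without WT 1. The 3 complete 5′ UTR sites stood at 21.1% in WT 1 and at no more than 0.498% in the other 5 libraries.

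**Figure D1:**
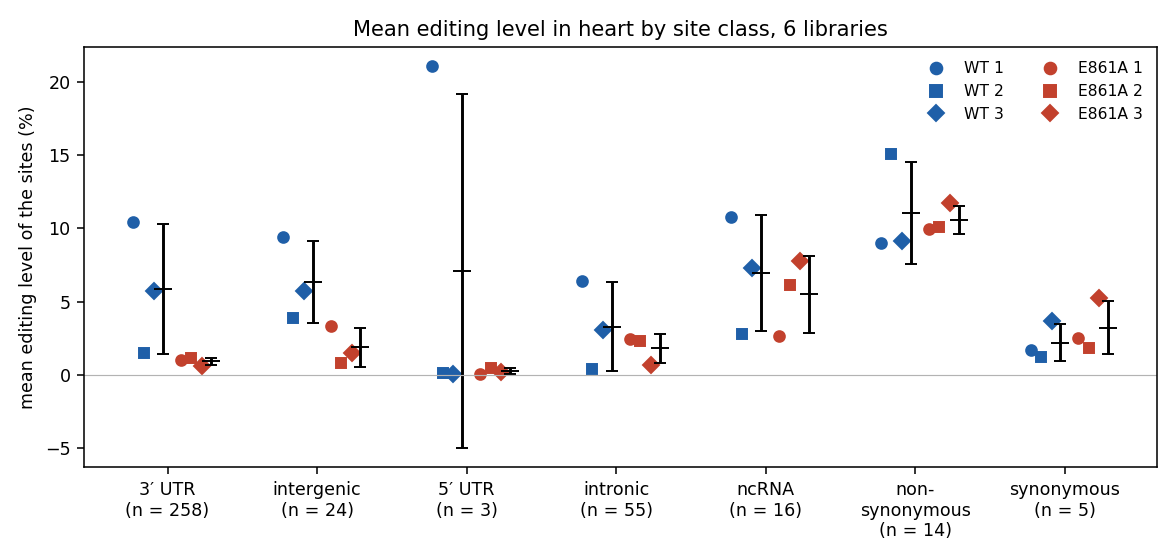
Mean editing level (%, vertical axis) of the complete kept sites of each class in each of the 6 heart libraries; blue symbols are WT, red symbols E861A, and black bars show mean ± SD of 3 libraries (the lower bar of the 5′ UTR class reaches below 0 because one library carries it). In 3′ UTRs the WT libraries lie at 10.4%, 1.50% and 5.70% and the E861A libraries between 0.634% and 1.12%, while nonsynonymous sites overlap between 9.00% and 15.1%.

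The kept sites also split by class when taken as present or absent. Above 1% in WT were 266 3′ UTR sites, of which 28 also exceeded 1% in E861A (10.5%, 95% Wilson interval 7.38 to 14.8). Of the 7 nonsynonymous sites above 1% in WT, 5 also exceeded it in E861A (71.4%, interval 35.9 to 91.8), and of the 4 synonymous sites 3 did (75%, interval 30.1 to 95.4). Intronic sites stood between, with 10 of 42 (23.8%, interval 13.5 to 38.5). Seen from E861A, 5 of the 14 nonsynonymous and 3 of the 6 synonymous sites above 1% were shared with WT, and 28 of the 73 in 3′ UTRs. Requiring a level over 1% in one genotype favours a lower level in the other, and the intervals treat sites as independent, which sites of one transcript are not.

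Most kept sites did not recur among replicates. Of the 375 complete sites, 227 exceeded 1% in just 1 WT heart, 61 in 2 and 25 in all 3, while 62 did so in none. Of the 227, 32 were high in WT 3 only, 21 in WT 2 only and all others in WT 1 only. Where a single WT heart was high, its level had a median of 6.83%, while the next WT heart had a median of 0.178%. In E861A, 113 sites exceeded 1% in 1 heart, 18 in 2 and 11 in all 3. Median coverage at the 227 sites was 1361 reads and at the 25 recurrent sites 2443 reads.

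Several genes carried a whole group of sites in a single library. All 4 complete sites of uc008obr.1 were at 100% in WT 3, each on 438 to 449 reads, and at no more than 0.291% in WT 1 and 0% in WT 2. The site of Nusap1, which encodes a spindle protein, was at 99.8% in WT 3 (1185 reads) and at 0.734% or less in every other library. The 3 sites of Sfxn2, a mitochondrial carrier, averaged 66.1% in WT 1, 1.29% in WT 2 and 0.297% in WT 3. Malt1, a signalling protease, averaged 32.5% over 2 sites in WT 1 and at most 0.554% elsewhere. In Mad2l1, a spindle checkpoint gene with 13 complete sites, 10 exceeded 1% in WT 1 and 3 each in WT 2 and WT 3, and chr6:66490282 was at 58.7% in WT 1 against 0.250% and 0.196%. In each of these genes 1 WT library carried nearly all of the WT mean.

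Some genes were uneven among E861A hearts as well. At Dusp11, a phosphatase gene whose 5 intronic sites gave the gene mean most above WT, the WT hearts averaged 1.50%, 0.080% and 1.33% and the E861A hearts 10.5%, 3.58% and 0.177%. Zfp397, a zinc finger gene with 9 complete sites, had 8 of them above 1% in E861A 3, 3 in E861A 2 and none in E861A 1. Among the 44 genes with at least 3 complete sites, the WT heart in which sites most often peaked was WT 1 in 34 (ties included), WT 3 in 8 and WT 2 in 2, and in 15 genes all sites peaked in the same WT heart.

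**Figure D2:**
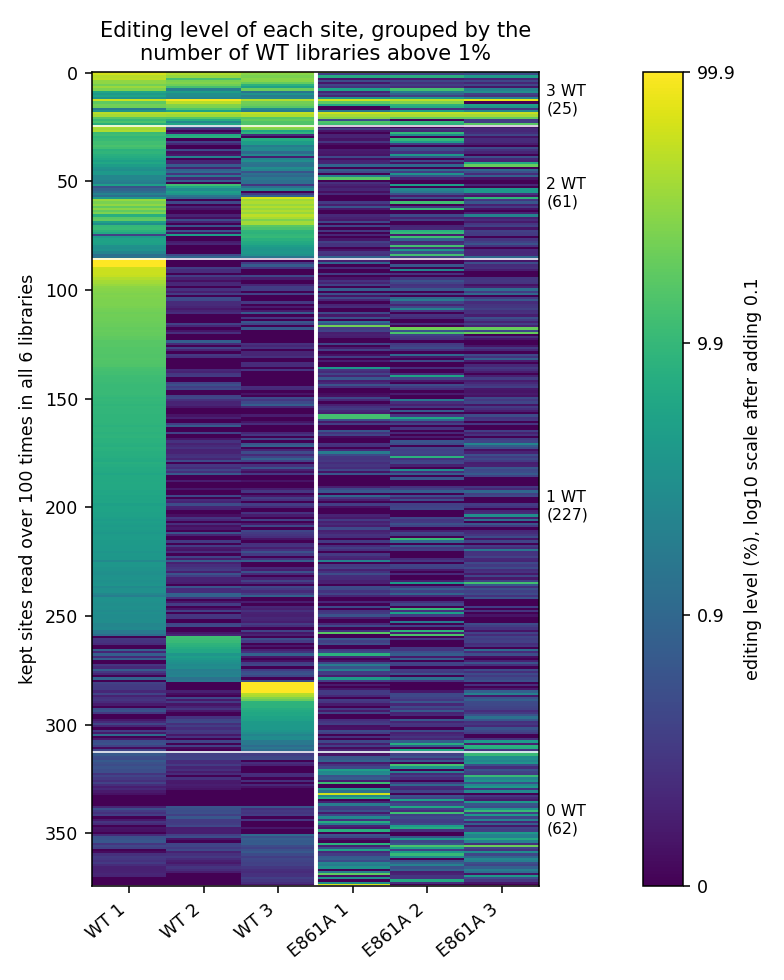
Editing level (colour, log10 scale after adding 0.1%) of the 375 complete sites (rows) in the 6 heart libraries (columns), with rows grouped by how many WT hearts exceed 1% (3, 2, 1 or 0; site numbers in parentheses). The largest block, 227 sites, is bright in 1 WT column only, mostly WT 1, and the top block of 25 sites is bright in all 3.

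Of the 25 sites above 1% in all WT hearts, 14 were lower in every E861A heart than in every WT heart, 1 was higher, and 10 did not separate. These 25 were picked by their WT levels, which favours a lower E861A value, so the count is a description. Of the 25, 10 stayed under 1% in all E861A hearts (40%) and 11 exceeded it in all 3, whereas 81.9% of the 227 sites high in 1 WT heart and 60.7% of the 61 high in 2 stayed under 1% in all E861A hearts. Over all sites, 8% of the complete kept sites (30 of 375) were lower and 4% (15 of 375) higher without overlap, and over all 4630 covered positions with 6 values the shares were 1.81% and 9.74%. Positions under the 1% limit had a median level of 0.064% to 0.072% in WT and 0.106% to 0.161% in E861A, so the higher count includes differences at that floor. Of the 15 kept sites that were higher, 1 exceeded 1% in all 3 E861A hearts. The count of 30 lower sites became 92 without WT 2 and 55 without WT 3, and the count of 15 higher sites became 51 without WT 1.

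The site with the largest difference among those without overlap was in Car5b, the gene of a mitochondrial carbonic anhydrase, in its 3′ UTR. It was edited at 61.6%, 43.4% and 28.9% in WT and at 0.267%, 0.324% and 0.402% in E861A, on 309 to 1492 reads. The adjacent adenosine (chrX:160415965) gave 32.0%, 24.5% and 28.3% against 0.403%, 0.323% and 0.330%. All 3 WT hearts, WT 2 included, thus stood far above all 3 E861A hearts at both.

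In Fam46c, chr3:100272400 was at 49.6%, 13.3% and 29.5% in WT and at 0.047%, 0.071% and 0.104% in E861A. The site at chr3:100274399 was at 31.8%, 26.8% and 19.3% against 0.050%, 0.152% and 0.108%, and chr3:100272398 at 34.9%, 13.0% and 5.11% against 0.184%, 0.138% and 0.050%. The highest E861A value at these sites was 0.184%.

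Nrp1, the gene of the semaphorin and VEGF co-receptor neuropilin, was edited at 23.6%, 21.5% and 8.37% in WT and at 0.315%, 0.252% and 0.337% in E861A. Rhoa, the gene of a small GTPase of the actin cytoskeleton, was edited at a low but recurrent 5.40%, 2.86% and 1.75% against 0.111%, 0.280% and 0.180%. Atl3, Taok1 and Rbm41, named here after their values were seen, hold the remaining 3 of the 10 recurrent sites that stayed under 1% in every E861A heart. The Atl3 site was at 10.3%, 7.18% and 19.5% in WT and at most 0.366% in E861A, and the Taok1 site at 4.02%, 2.94% and 3.28% against at most 0.775%.

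Ecm2, which encodes an extracellular matrix protein, was only partly lower in E861A. Its most edited 3′ UTR site (chr13:49627526) was at 59.9%, 40.8% and 58.2% in WT and at 39.4%, 15.6% and 3.81% in E861A. At chr13:49627504 the levels were 47.6%, 33.1% and 24.7% against 7.18%, 7.76% and 4.33%. The genotypes did not overlap at either site, but every E861A heart stayed above 1%. A site labelled intergenic on chromosome 17 (chr17:39980697), 4351 bases from AY036118, was likewise partly lower, at 22.9%, 28.0% and 20.3% against 6.19%, 8.51% and 4.75%.

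A second group was edited in WT 1 and WT 3 but not in WT 2. Trim12c, a member of the tripartite motif family, was at 42.4%, 0.685% and 33.1% in WT and at 0.0615% or less in E861A. Igf2, a fetal growth factor gene, averaged 22.7%, 0.112% and 12.2% over 2 sites against 0.102% to 0.179%. The non-coding uc007vsb.1 averaged 18.7%, 0% and 21.9%, uc007yzr.1 22.8%, 0.064% and 15.2% over 7 sites, and Dclre1c, a DNA repair nuclease gene, 13.1%, 0.116% and 22.7%. Mgat4a, a glycosyltransferase gene, averaged 32.9%, 0.158% and 5.27% over 5 sites, and Cds2, a phospholipid synthesis gene, stood at 16.7%, 0.029% and 40.3% at its most edited site. In these 7 genes the E861A hearts averaged at most 0.439%, so WT 2 lay with or near the E861A hearts, and the genotype ranges of the gene means overlapped in all but Trim12c.

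**Figure D3:**
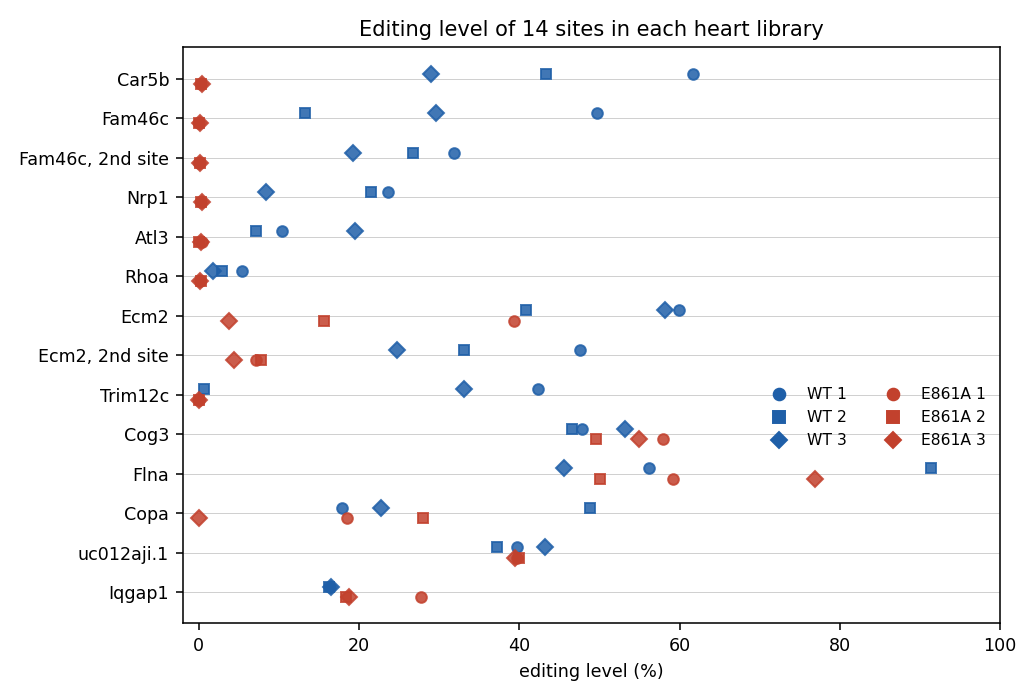
Editing level (%, horizontal axis) of 14 sites in each heart library, with WT 1 to 3 in blue and E861A 1 to 3 in red. At Car5b, Fam46c, Nrp1, Atl3 and Rhoa the red symbols lie under 1%, at Ecm2 they lie below the blue ones but apart from 0, and at Cog3, Flna, Copa, uc012aji.1 and Iqgap1 both genotypes stand between 16.2% and 91.4% apart from a Copa value of 0% in E861A 3.

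Across all sites the moderated test gave few calls. In the limma fit of log2((level + 0.01)/(1 - level + 0.01)), 0% of the 446 sites were lower and 0% higher in E861A at an adjusted p of 0.05. Without adjustment, 21 of the 446 sites passed a limma p under 0.05, all of them lower (0 higher). That is about as many as a threshold of 0.05 passes by itself, and the choice of sites through WT favours their direction. A quasi-binomial model called 2 lower. Over the 140 genes with complete sites, 0.714% (1 gene) were called lower and 0% higher by limma. Without adjustment 7 genes passed a limma p under 0.05, all lower, again about as many as the threshold passes by itself. The called gene was Car5b, whose mean level went from 36.4% ± 9.36 (n = 3) to 0.341% ± 0.022 (n = 3), a log2 change on the fitted scale of -5.43 (SE 0.87, limma adjusted p = 0.0222). The 2 Car5b sites were kept through WT alone, a choice that favours a lower E861A level. With sites chosen by editing in WT of another tissue, the change was -4.71 (limma adjusted p = 0.266). Over all alternatives the adjusted p of Car5b ranged from 5.27e-05 to 0.503. It was 0.0903 without WT 1, 0.242 without E861A 1, 0.266 without E861A 2 and 0.0829 without E861A 3. Nrp1 came next at a limma adjusted p of 0.126, and ranged over the fits without 1 library from 0.032 (without WT 3) and 0.0444 (without WT 2) to 0.698 (without E861A 1), passing the threshold in those 2 of the 6. By direction alone, which the choice of sites through WT largely sets, the mean was lower in E861A at 285 of the 375 complete sites (76%), at 212 of 258 in 3′ UTRs, 34 of 55 in introns, 6 of 14 at nonsynonymous and 1 of 5 at synonymous positions.

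**Figure D4:**
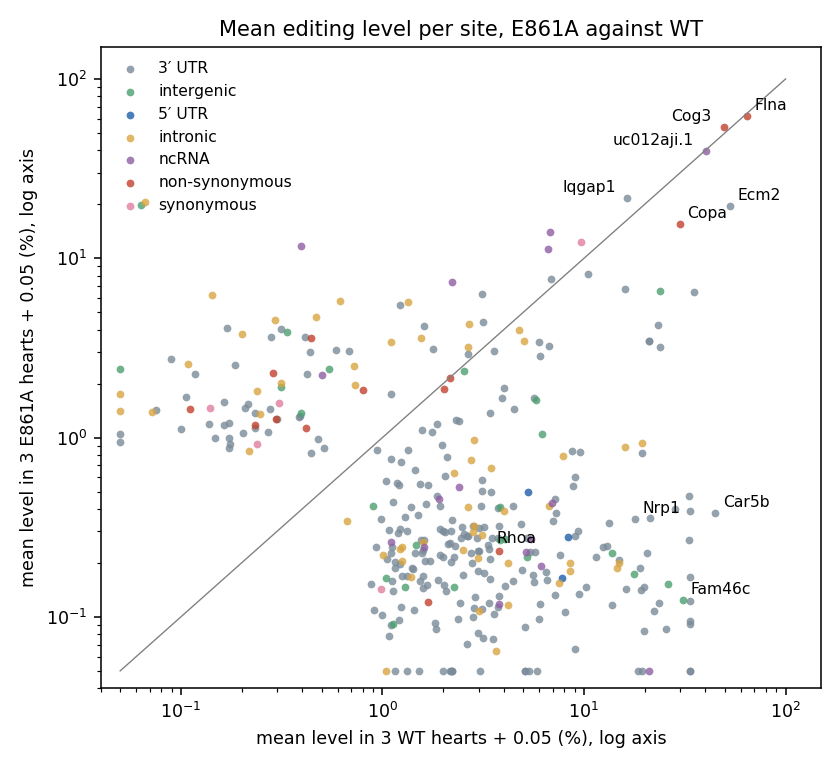
Mean level in 3 E861A hearts against mean level in 3 WT hearts for each of the 375 complete sites, both in percent after adding 0.05 on log axes, coloured by site class, with the line of equality. Car5b, Fam46c and Nrp1 lie far below the line, and Cog3, Flna, uc012aji.1 and Iqgap1 lie on or near it.

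A level over 1% remained in all E861A hearts at a small number of sites, 6 of which have genomic copies with G. Of all 446, 14 exceeded 1% in each E861A heart, and 7 of these exceeded 5% in each; the 14 include the partly edited Ecm2 and chromosome 17 sites described above. Leaving out E861A 1 raised the 14 to 31.

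Cog3, which encodes a subunit of the Golgi tethering complex, had the steadiest recoding. Its isoleucine-to-valine site (chr14:76119526) was at 47.8%, 46.5% and 53.2% in WT and at 57.9%, 49.6% and 54.9% in E861A, on 2236 to 6692 reads. The next base, which leaves glutamate unchanged (chr14:76119527), was at 8.02%, 5.94% and 14.8% against 12.0%, 8.19% and 16.4%. A lysine-to-arginine site 5 bases from the first gave 0.790%, 2.80% and 2.73% against 0.103%, 2.22% and 3.98%. The genotypes overlapped at all 3 sites.

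Flna, the gene of the actin crosslinker filamin A, was edited at its glutamine-to-arginine site at 56.1%, 91.4% and 45.5% in WT and 59.1%, 50.1% and 76.9% in E861A. The WT hearts differed from each other by more than the genotypes did, and the mean difference of -2.30 points became 11.2 without WT 2 and 3.67 without E861A 2. Copa, the gene of a coatomer subunit, was at 17.8%, 48.9% and 22.7% at its isoleucine-to-valine site in WT and at 18.5% and 28.0% in E861A 1 and 2. In E861A 3 it had no edited read among 1197, which allows a level of up to 0.251%, so the E861A hearts disagreed with each other.

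Acot10, an intronless acyl-CoA thioesterase gene, was read over 100 times in 2 WT hearts only. Its synonymous sites at chr15:20595218 and chr15:20595389 were at 15.7% and 72.1%, and 16.5% and 70.1%, in WT 2 and WT 3. In E861A they were at 24.4%, 34.7% and 9.71%, and at 26.2%, 25.4% and 11.5%. Each has a genomic copy with G elsewhere, and the differences of -20.9 and -22.2 points turned to 7.28 and 4.57 without WT 3.

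The uc012aji.1 site at chr17:6123047 hardly varied, at 39.6%, 37.2% and 43.2% in WT and 39.7%, 39.9% and 39.4% in E861A, and it stayed between 32.9% and 43.8% in the 46 libraries of all tissues that read it. The Iqgap1 site at chr7:87857174, in the gene of a scaffold protein, was at 16.4%, 16.2% and 16.5% in WT and 27.7%, 18.4% and 18.8% in E861A, and between 10.8% and 27.7% in all 48 libraries. Both have genomic copies that carry G at the edited base, and the part of these copies was not tested. Ncl, the nucleolin gene, was at 3.45%, 5.46% and 1.70% against 1.53%, 4.97% and 2.48% at chr1:88244312, a sequence with 1594 copies that carry G. Of the 14 sites above 1% in each E861A heart, 6 had such a copy (42.9%), against 35.7% of all kept sites.

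Other coding sites were low or sporadic. Kcna1, a neuronal potassium channel gene, was at 10.8% in WT 2 and at 0.275% or less in the other libraries at its tyrosine-to-cysteine site. The first lysine codon site of Arl6ip4, a gene of a splicing regulator, was at 0.225%, 0.058% and 0.267% in WT and 2.14%, 0.779% and 0.444% in E861A, the only nonsynonymous site higher without overlap among those read in all 6 libraries. A synonymous site in Cacna1g, a calcium channel gene named after its values were seen, was also higher without overlap, at 0.168%, 0.084% and 0.314% in WT and 0.372%, 0.426% and 1.83% in E861A. 2610044O15Rik stood at 13.0% in E861A 2 and at 0% in the 3 other libraries that read it. The 7 nonsynonymous Zfp397 sites ranged from 0% to 6.35%.

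Gene lists gave a like picture, as counts only. Of 15 genes known for recoding outside neurons, 8 were covered and 3 (Cog3, Flna, Copa) held 5 kept sites, of which none was called and none separated the genotypes; Cyfip2, Blcap, Son, Tmem63b and Nova1 were covered with no kept site. Of 13 neuronal receptor and channel genes, 5 were covered and Grik2 and Kcna1 each held 1 kept site, of which that in Grik2 was higher in E861A without overlap. Of 10 genes known for dense 3′ UTR clusters, 9 held 26 kept sites, of which 24 were complete and 4 were lower and 1 higher without overlap, against 8% and 4% of all complete kept sites. Their median difference was -3.12 points against -1.75 over all kept sites. Within the last list, Ncl was at 9.59%, 8.16% and 0% in WT and 0.1%, 0% and 0.042% in E861A at chr1:88242486, and Trove2 at 20.3% in WT 1 and 22.9% in E861A 1 but at 0.123% or less elsewhere at chr1:145602508. The single retrogene, Acot10, held 3. limma called none of these sites in either direction, as it called none of the 446.

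The sites above 1% only in E861A differed from the rest in several traits, and they also lay nearer the limit. Their median pooled level was 1.60% in E861A, against 3.22% in WT for the WT-only sites. Shared sites had medians of 5.37% in WT and 2.79% in E861A. The choice also required E861A-only sites to be at or under 1% in WT heart, which is not independent of their level in WT of other tissues. Sites above 1% in WT only numbered 304, in both genotypes 52, and in E861A only 90. The same position was also above 1% in WT of another tissue for 250 (82.2%), 52 (100%) and 35 (38.9%) of them, against 17.5% of covered positions under the limit. A G before the edited A, which ADARs are known to disfavour, preceded 12.5% of the WT-only sites, 7.69% of the shared sites and 38.9% of the E861A-only sites, and 23.0% of positions under the limit. A T preceded 39.8%, 51.9% and 16.7% of them, against 18.3%. Another kept site lay within 50 bases for 74.0%, 76.9% and 44.4%. These shares describe sites that share transcripts and were not tested.

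As a share of heart sites, the overlap was highest with brain and liver, and as a share of the other tissue's sites it was lowest with brain, which kept 808 sites, and highest with spleen. Of the heart sites covered in brain, 244 (72.0%) were also kept there, which is 31.6% of the brain sites covered in heart. For liver 261 sites were shared (65.4% and 40.8%), for kidney 202 (55.0% and 39.1%) and for spleen 128 (28.8% and 47.4%). The 52 heart sites above 1% in both genotypes were covered in brain in 48 cases, of which 46 also exceeded 1% in E861A brain, while 33 of 44 did so in kidney and 15 of 52 in spleen.

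At single sites the other tissues set the heart values in context. Car5b (chrX:160415964) was edited at 58.3%, 61.0% and 25.7% in WT brain and 75.5%, 87.7% and 54.2% in WT liver, and no E861A library of the 23 that read it exceeded 0.947%. Rhoa, at 5.18%, 3.03% and 0.925% in WT brain, reached 42.4%, 49.9% and 35.3% in WT bone marrow and 42.8%, 45.4% and 39.8% in WT spleen, with at most 0.443% in any of 24 E861A libraries. Flna was higher in heart than elsewhere in E861A, where kidney gave 30.9%, 28.7% and 32.3% and bone marrow 1.50%, 0.381% and 1.30%. No test was made of these tissue levels.

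**Figure D5:**
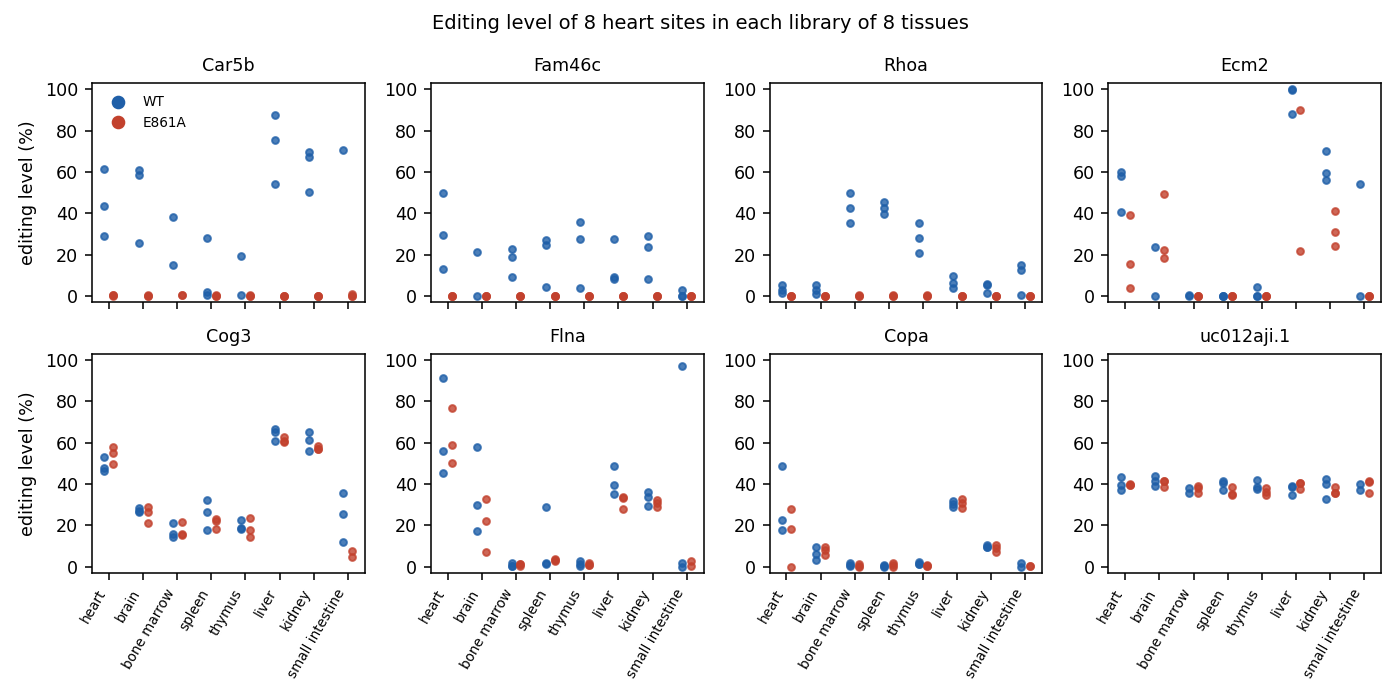
Editing level (%, vertical axis) of 8 heart sites in every library of 8 tissues that read the site over 100 times, WT in blue and E861A in red. Car5b and Fam46c are near 0 in all E861A libraries, Rhoa is highest in WT bone marrow and spleen, and Cog3 stays edited in both genotypes. The level counted at uc012aji.1 is alike in both genotypes, at a sequence with genomic copies that carry G.

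Whether the genotype effect itself differed between tissues was tested with an interaction term over 12 libraries each. Against kidney 2.5% of sites (17 of 681) differed at a limma adjusted p under 0.05, all with the smaller fall in heart. Of the 17, 1 was kept in heart and the others entered through kidney, a choice that favours this direction. At these sites WT kidney was edited at 4.87% to 59.5% and E861A kidney at no more than 0.970%, while WT heart reached 5.45% at a Rragd site and 1.78% at most at the rest. Against brain 0.231% (2 of 866) differed, in Golga2 and Gnl3l, where heart was at 0.204% or less in WT and 0.317% or less in E861A. The Golga2 site was at 78.6% and 40.0% in the WT brains that read it, and the Gnl3l site at 12.9%, 18.5% and 11.0% in E861A brain. Over the alternatives, the limma adjusted p was 0.0656 to 0.335 at Golga2 and 0.0389 to 0.335 at Gnl3l. The share was 0% against small intestine by limma (12 of 629 at an unadjusted p under 0.05, smallest adjusted p 0.742). None of the sites shown in sequence above was among these calls.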

How the data were processed

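Editing was measured by multiplex PCR and sequencing (mmPCR-seq). For each library the authors deposited counts of total and edited reads per position and the edited fraction; STAR, SAMtools and mm9 are named in the submitters' processing notes, without the settings used. The series-wide expression tables were not used.

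Levels were computed from the deposited counts. A position was covered if 2 or 3 hearts of each genotype had more than 100 reads, and kept with a pooled level over 0.01 in either. Site and gene means were fitted with limma 3.58.1 (R 4.3.3, trend) on log2((level + 0.01)/(1 - level + 0.01)), and p-values were adjusted by Benjamini-Hochberg (threshold 0.05); means over libraries used two-sided exact permutation tests (Python 3.11.15), and the fits were tested on simulated data. Summed coverage per heart library was 4878116 to 11394093. Replicate files were checked for a library deposited more than once by chi-square on their reads, and 44.9% to 86.1% of tested sites differed, so each was counted; this says nothing of replicate quality. Alternatives changed coverage, limit, offset, model, replicate block and libraries. Members and lists were chosen with earlier results of these data known. Named were the largest falls and rises of gene means, the sites with the largest differences without overlap or smallest limma p, all nonsynonymous sites, the highest synonymous and 5′ UTR sites, the sites highest in E861A, one site per list gene, the genes with the widest WT range and the interaction sites, with values for at most 30 genes beside those last; uc007lnx.2, Bbs1, uc008nqs.1, Bri3bp, Ppp1r15b, Grik2 and Exoc8 met the rule and are given without values. Atl3, Taok1, Rbm41 and Ncl chr1:88244312 were added after their values were seen.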

Additional observations from a re-analysis of the deposited data

Results flagged for a closer look

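The genotype effect differed between heart and another tissue at 19 sites, by an interaction term in limma (adjusted p under 0.05). The values are the heart change minus the change in the other tissue on the fitted log2 scale, so a positive value means that heart changed less downward than the other tissue. Against kidney they were 4.20 at Trove2, 3.90 at Rbm8a, 5.48 at Rragd, 4.44 and 3.26 at 2 Ovca2 sites, 3.71 at Samd8 and 3.01 at an intergenic site (chr10:93427325). At 3 Slc35e2 sites they were 3.42, 4.03 and 4.18, at uc007vsb.1 4.27 and 3.18, at uc012aji.1 5.85 and 5.39, at C330018D20Rik 4.43 and at Gnl3l 4.80 and 4.30. Against brain they were 6.60 at Golga2 and -3.96 at a further Gnl3l site, where E861A brain was at 11.0% to 18.5% and heart at 0.251% or less in both genotypes. Of the kidney sites 1 was kept in heart, and of the brain sites none was, so the others entered through the other tissue. At the kidney sites WT heart reached 5.45% at the Rragd site and 1.78% at most at the rest, which left little room for a fall in heart. The choice of sites thus favours the positive sign.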

How the results depend on the processing

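In heart, limma called 0 sites lower and 0 higher. The count of lower sites was 9 with over 500 reads, 4 each with a limit of 0.05, an offset of 0.001 or no trend, 13 by the study's criterion and 2 with a quasi-binomial model, and 19 lower and 10 higher in a fit over all 48 libraries. The 1 gene called lower became 0 with over 500 reads, with sites edited in WT of another tissue, with an offset of 0.05, with untransformed levels and with the quasi-binomial model, 2 with an offset of 0.001 or no trend, and 6 (and 6 higher) over 48 libraries; without single libraries it was 0 to 10, the most without WT 2. The share of WT sites also above the limit in E861A, 14.6%, was 18.8% with the limit on all 6 libraries and 11.0% to 24.3% without single libraries. Without single libraries, class differences ran in points from -2.95 to 0.0687 (intronic), -3.52 to 0.45 (non-coding RNA), -1.51 to 1.52 (nonsynonymous), -0.0153 to 1.72 (synonymous) and -10.3 to 0.15 (5′ UTR), whereas 3′ UTR (-7.12 to -2.67) and intergenic differences (-5.69 to -2.92) kept their direction. Sites above the limit in each E861A heart, 14, were 7 above 0.05 and 16 to 31 without single libraries. The counts without overlap, recomputed without single libraries after seeing the data, were 36 to 92 lower and 19 to 51 higher.

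The 17 kidney interactions became 2 untransformed and 8 to 42 without single heart libraries, the 2 brain interactions 0 untransformed, 4 with over 500 reads and 0 without any single heart library, and small intestine gave 0 to 3. Among named sites, Flna ran from -11.7 to 11.2, with 3.67 without E861A 2, Acot10 from -49.2 to 7.28 and from -49.0 to 4.57, and uc012aji.1 from -1.76 to 1.23. Replicate numbers did not pair the samples (r of -0.00648, -0.101 and 0.0380 over 375 sites for equal numbers). With the replicate block 0 sites and 1 gene were called lower, the kidney interactions fell to 9 and the brain interactions to 0. Depth limits a position of 100 reads to steps of 1%.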
